A study of Mus musculus with 7 samples.

Results

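The calcineurin, NFAT and Rcan genes were followed in left ventricles of mice with an amino acid exchange in titin. The 10 members were chosen by gene name: the calcineurin subunits *Ppp3ca*, *Ppp3cb* and *Ppp3r1*, the modulators *Rcan1*, *Rcan2* and *Rcan3*, and the transcription factors *Nfatc1*, *Nfatc2*, *Nfatc3* and *Nfatc4*. All 10 were found among the 20927 genes of the count table, and all 10 passed the filter on low counts that left 13894 genes for testing.

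RNA was sequenced from the left ventricles of 3 WT mice (replicates 1, 3 and 4) and 4 homozygous A178D mice (replicates 1 to 4), with 1 library per heart. Both groups are labelled C57BL/6J, and no treatment is named for either. A178D replaces an alanine of titin by aspartate, in the region that anchors this giant protein in the sarcomeric Z-disc. The allele was made by genome editing in embryonic stem cells of another substrain, C57BL/6N, followed by backcrossing to C57BL/6J. For these 7 mice the age and the sex are not given in the sources used here. The Y-linked transcript *Ddx3y* lay between 75.2 and 119 CPM in all 7 hearts, where CPM are counts scaled to the library size by TMM, and *Xist* was not analysed here.

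The libraries held between 33080675 counts (A178D replicate 4) and 54245530 counts (WT replicate 3). For the members, the counts per library ranged from 236 for *Nfatc4* in A178D replicate 4 to 34439 for *Rcan2* in A178D replicate 2. The ventricular label was checked with marker genes. Of the 8 cardiomyocyte markers *Myh6*, which encodes the main myosin of the adult mouse heart, was the most abundant. Its level does not tell ventricle from atrium. The atrial transcripts *Myl7* and *Sln* reached at most 0.152 and 0.0991 CPM. The remaining atrial marker, *Myl4*, lay between 1.85 and 1.90 CPM in WT and between 2.14 and 4.01 CPM in A178D hearts and was not called (log2 fold change 0.65, adjusted p = 0.171 in edgeR's test).

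A pair of libraries stood apart by transcript length. In A178D replicate 4, the 818 tested genes with transcripts of at least 8000 bases had a median log2 deviation of -0.27 from the mean of the 7 libraries, and the 1461 genes with transcripts of at most 1500 bases had one of 0.20. In WT replicate 1 the same medians were 0.13 and -0.14. In the other 5 libraries the medians of the long transcripts lay between -0.01 and 0.06. The longest annotated transcripts of the members measured from 2324 bases (*Rcan1*) to 6828 bases (*Nfatc2*), so that values fitted with offsets for length and GC content are given beside a part of the results.

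Calcineurin is a phosphatase that calcium and calmodulin switch on, and it is built from a catalytic and a regulatory subunit. It strips phosphate groups from NFAT factors, which then move into the nucleus, and in heart muscle this route is known for driving hypertrophic growth. Rcan proteins bind calcineurin and modulate it, and an internal promoter of *Rcan1* is itself a known NFAT target, so that *Rcan1* mRNA often serves as a readout of the pathway.

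The comparison of A178D with WT hearts asks which of these transcripts differ between the genotypes. *Rcan1* was higher in A178D hearts, with a log2 fold change of 0.63 (standard error, SE, 0.15), and was the only member called by edgeR's quasi-likelihood test, at a Benjamini-Hochberg adjusted p under 0.05. Among all genes tested 2.35% were called, 1.04% as higher and 1.31% as lower in A178D. The transcripts of the subunits, of *Rcan2* and of *Rcan3* were not called. All 4 NFAT members had log2 fold changes between -0.27 and -0.20 with an unadjusted p under 0.05, and none of them was called. Over the 10 members the median log2 fold change was -0.09, with 3 above and 7 below 0, beside a median of 0.002 over all genes tested.

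**Figure D1:**
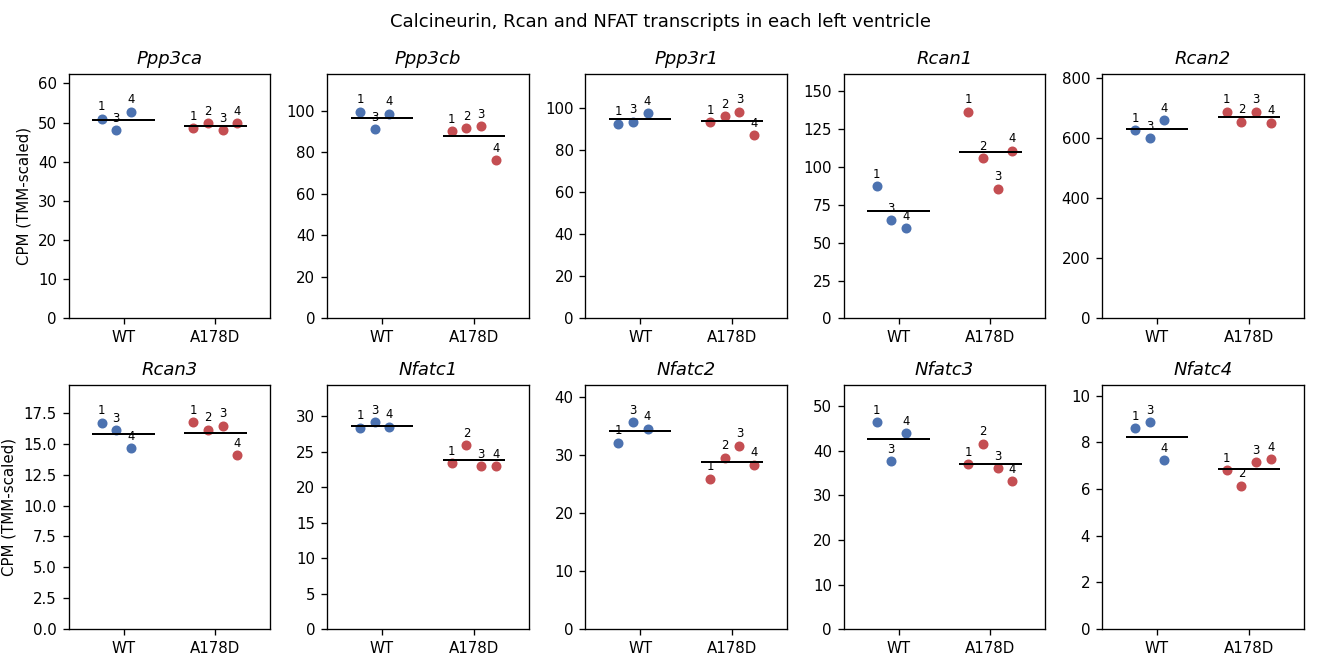
The level of each member in each left ventricle, in CPM on axes that start at 0. Points are single hearts numbered by replicate (blue, WT; red, A178D) and black lines are the group means. For *Rcan1* the means were 70.8 and 109.8 CPM, and WT replicate 1 lay above A178D replicate 3.

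The catalytic subunits carry the phosphatase activity. *Ppp3ca*, which encodes the alpha isoform, lay between 48.0 and 52.8 CPM in WT and between 48.1 and 49.9 CPM in A178D hearts. *Ppp3cb*, which encodes the beta isoform that is needed for pressure-induced hypertrophy in mice, lay between 91.2 and 99.6 CPM in WT and between 76.1 and 92.5 CPM in A178D hearts. The lowest *Ppp3cb* value was that of A178D replicate 4, and the other A178D hearts lay within 90.3 to 92.5 CPM. Its log2 fold change was -0.14 (SE 0.08, adjusted p = 0.419 in edgeR's test), or -0.08 without A178D replicate 4 and -0.11 with the offsets for length and GC content. For *Ppp3ca* the log2 fold change was -0.04 (SE 0.07, adjusted p = 0.811 in edgeR's test), or -0.01 with the offsets, so that the groups overlapped in both genes and differed by less than could be told from the spread between hearts.

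*Ppp3r1* encodes the regulatory subunit, which binds calcium. It lay between 92.8 and 97.9 CPM in WT and between 87.3 and 98.5 CPM in A178D hearts, with a log2 fold change of -0.01 (SE 0.07, adjusted p = 0.954 in edgeR's test). The sign of this value turned to 0.01 without WT replicate 4 and to 0.02 without A178D replicate 4. Of the 3228 exonic bases of *Ppp3r1*, 462 are shared with exons of *Wdr92* on the same strand, so that some reads could belong to either gene. *Ppp3cc*, the remaining catalytic isoform, was outside the members and had a log2 fold change of 0.07 (SE 0.09, adjusted p = 0.773 in edgeR's test), which was 0.03 with the offsets and turned to -0.02 without WT replicate 1. The testis form of the regulatory subunit, *Ppp3r2*, is listed at 0 in every library.

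*Rcan1* (ENSMUSG00000022951) encodes the best studied modulator of calcineurin and lies on the minus strand of chromosome 16 from 92391953 to 92470867 (GRCm38). Its level was 87.5, 65.1 and 59.7 CPM in WT replicates 1, 3 and 4. In A178D replicates 1 to 4 it was 137, 106, 85.7 and 111 CPM. All 4 A178D hearts were above WT replicates 3 and 4, and the genotypes overlapped only because WT replicate 1 was slightly above A178D replicate 3. The means were 70.8 ± 14.7 CPM (SD, n = 3) in WT and 109.8 ± 20.97 CPM (SD, n = 4) in A178D hearts, a rise of 55.0% in the fitted model. The log2 fold change of 0.63 had an unadjusted p of 0.000731 and an adjusted p of 0.0394 in edgeR's test.

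The call of *Rcan1* was close to the threshold. With DESeq2's Wald test the log2 fold change was again 0.63, with an adjusted p of 0.0631, and over the alternatives that kept all hearts the adjusted p ranged from 0.00221 to 0.0631. Leaving out single hearts gave log2 fold changes from 0.51 to 0.82, all above 0. The call held without WT replicate 1 (adjusted p = 0.00536 in edgeR's test) and without A178D replicate 3 (0.0229), the hearts that overlapped. It was lost without WT replicate 3 (0.194), WT replicate 4 (0.182), A178D replicate 1 (0.115), A178D replicate 2 (0.0626) or A178D replicate 4 (0.0545). With the offsets for length and GC content, the log2 fold change was 0.58 with an adjusted p of 0.0493 in edgeR's test.

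The counts of *Rcan1* add up its transcripts from all starts, and isoforms were not analysed here. RefSeq gives 2 promoter windows for *Rcan1*, whose starts lie 66091 bases apart, and the 250 bases before each are shown because the rise in counts cannot be assigned to either. The upstream window is chr16:92466170-92466419 and the internal window chr16:92400079-92400328, both on the minus strand of GRCm38.p6. Overlap of these windows with exons was not examined. The annotated gene reaches to 92470867, beyond the upstream window, so that an annotated start lies before both windows. Capitals mark GGAAA, the core of NFAT binding motifs, or TTTCC, the same letters on the other strand.
Rcan1 upstream: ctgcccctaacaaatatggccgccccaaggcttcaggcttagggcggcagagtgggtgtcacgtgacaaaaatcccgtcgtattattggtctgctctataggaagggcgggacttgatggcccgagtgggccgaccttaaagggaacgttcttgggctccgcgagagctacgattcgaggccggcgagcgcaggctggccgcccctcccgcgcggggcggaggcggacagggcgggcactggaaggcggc
Rcan1 internal: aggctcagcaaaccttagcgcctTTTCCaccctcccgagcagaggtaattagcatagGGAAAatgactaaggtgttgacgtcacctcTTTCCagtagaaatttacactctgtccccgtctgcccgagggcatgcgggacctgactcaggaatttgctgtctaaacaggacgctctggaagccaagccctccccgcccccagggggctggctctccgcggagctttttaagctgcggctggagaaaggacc
The upstream window holds no match and the internal window holds 3, of which 1 is GGAAA and 2 are TTTCC. Of 32841 promoter windows of the same length, 55.6% hold at least 1 match and 6.39% hold at least 3. The same number of matches, 3, was found in a window each of *Ppp3cb*, *Nfatc2* and *Nfatc4*. Windows were matched for 8 of the 10 members, and 8 of their 13 windows hold a match. These matches describe letters in a window, and binding was not measured.

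*Rcan2*, a relative of *Rcan1* with high expression in heart and brain, was the most abundant member. It lay between 600 and 659 CPM in WT and between 650 and 687 CPM in A178D hearts, with a log2 fold change of 0.09 (SE 0.06, adjusted p = 0.507 in edgeR's test). *Rcan3* lay between 14.6 and 16.7 CPM in WT and between 14.1 and 16.7 CPM in A178D hearts. Its log2 fold change was 0.004 (SE 0.10, adjusted p = 0.991 in edgeR's test), and the sign turned in 4 of the 7 fits without a single heart, over a range from -0.05 to 0.06. Both genes overlapped between the genotypes, as *Rcan1* did, and among the modulators edgeR called only *Rcan1*.

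Across the 7 hearts, the genes most like *Rcan1* were *Spon2*, *Ankrd23* and *Tnfrsf12a*, out of 12211 tested genes whose mean count reached 50. Pearson's r of the log2 CPM was 0.992, 0.990 and 0.990 over 7 libraries, which is a description of hearts that also share their genotype groups. A similar order of the hearts and a similar difference between the genotypes follow from this choice, so that these genes are no separate evidence for the rise of *Rcan1*. *Ankrd23* encodes an ankyrin repeat protein that binds titin and belongs to the same family as *Ankrd1*. Its level was 495, 312 and 292 CPM in WT replicates 1, 3 and 4, and 816, 629, 476 and 576 CPM in A178D replicates 1 to 4. *Tnfrsf12a*, which encodes the receptor of the cytokine TWEAK, was at 36.6, 23.0 and 22.0 CPM in these WT hearts and at 65.7, 50.05, 34.8 and 58.3 CPM in the A178D hearts. In both genes, as in *Rcan1*, WT replicate 1 was the highest WT heart and A178D replicate 3 the lowest A178D heart, and this pair overlapped. *Spon2*, which encodes a secreted matrix protein, showed the same extremes at a far lower level, from 1.08 CPM in WT replicate 4 to 4.91 CPM in A178D replicate 1, without overlap.

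*Ankrd23* had a log2 fold change of 0.77 (SE 0.18, adjusted p = 0.0447 in edgeR's test) and *Tnfrsf12a* of 0.94 (0.20, 0.0275). *Ankrd23* was no longer called with DESeq2 (adjusted p = 0.102), with the offsets (0.058), or without WT replicate 3 (0.211), WT replicate 4 (0.202), A178D replicate 1 (0.13) or A178D replicate 2 (0.0751). *Tnfrsf12a* lost its call without WT replicate 3 (adjusted p = 0.169 in edgeR's test), WT replicate 4 (0.143) or A178D replicate 1 (0.0897). For *Spon2* the log2 fold change was 1.12 (SE 0.28) with an adjusted p of 0.0587 in edgeR's test, the alternatives that kept all hearts gave 0.00531 to 0.0861, and it was called with DESeq2 (0.00531), without a filter (0.0272), with a replicate block (0.0357), with the block and the offsets (0.0425), without WT replicate 1 (0.0234) and without A178D replicate 3 (0.0392).

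**Figure D2:**
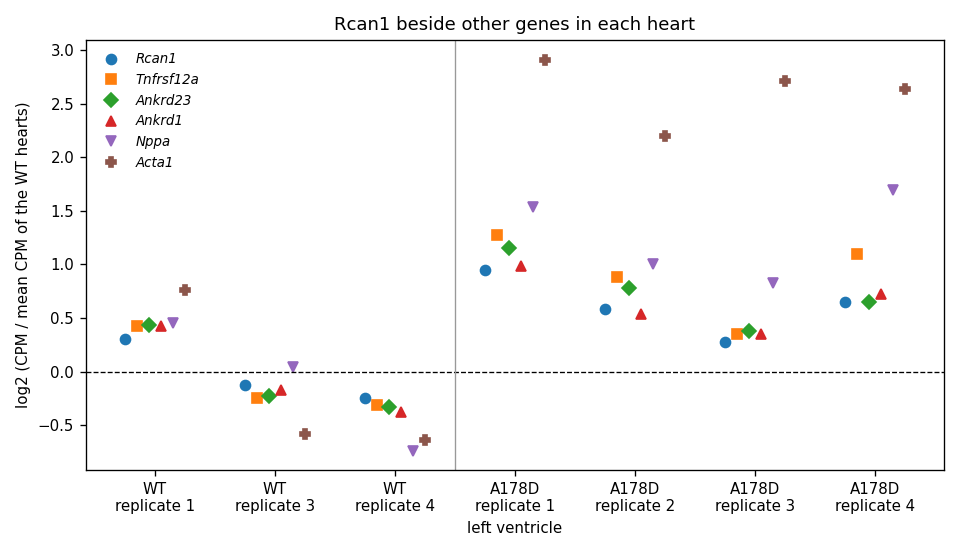
The level of *Rcan1* and of 5 further genes in each left ventricle, as log2 of the CPM over the mean of the WT hearts. Symbols are genes, columns are hearts and the dashed line is the WT mean. All 6 genes lay above their WT mean in WT replicate 1, where *Rcan1* was at 87.5 CPM, and in all 4 A178D hearts.

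The NFAT members encode the calcium-regulated transcription factors that calcineurin acts on. *Nfatc1* (ENSMUSG00000033016) is known for its role in the endocardium and the heart valves. Its level was 28.4, 29.2 and 28.5 CPM in WT replicates 1, 3 and 4. In A178D replicates 1 to 4 it was 23.4, 26.0, 23.0 and 22.9 CPM. The highest A178D heart, replicate 2, lay below the lowest WT heart. The log2 fold change was -0.27 (SE 0.08), with an unadjusted p of 0.00525 and an adjusted p of 0.109 in edgeR's test.

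*Nfatc2*, first known from T cells, was at 32.1, 35.6 and 34.5 CPM in the WT hearts. In A178D replicates 1 to 4 it was at 25.9, 29.5, 31.6 and 28.3 CPM. Again no A178D heart reached a WT heart, although WT replicate 1 and A178D replicate 3 were close. The log2 fold change was -0.24 (SE 0.09), with an unadjusted p of 0.0149 and an adjusted p of 0.178 in edgeR's test. Groups without overlap and a lower level in A178D were thus found in 2 of the 10 members, and in 8.52% of all genes tested, where chance alone gives 2.86% for 3 against 4 hearts.

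*Nfatc3* encodes the factor through which calcineurin-driven hypertrophy was traced in mouse hearts. It was at 46.3, 37.7 and 44.0 CPM in WT replicates 1, 3 and 4. In the A178D hearts it was at 37.0, 41.6, 36.1 and 33.2 CPM. The groups overlapped, since A178D replicate 2 was above WT replicate 3, and A178D replicate 4 was the lowest heart. The log2 fold change was -0.20 (SE 0.09), with an unadjusted p of 0.0488 and an adjusted p of 0.295 in edgeR's test. Exons of *Esrp2* on the opposite strand cover 219 of its 11726 exonic bases, and the mean of *Esrp2* was only 0.648 CPM in WT and 0.734 CPM in A178D hearts.

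*Nfatc4*, which was found through its interaction with the cardiac factor Gata4, was the least abundant member. It was at 8.62, 8.86 and 7.24 CPM in the WT hearts. In A178D replicates 1 to 4 it was at 6.82, 6.15, 7.17 and 7.29 CPM. The groups met at WT replicate 4, which lay just below A178D replicate 4. The log2 fold change was -0.27 (SE 0.12), with an unadjusted p of 0.0466 and an adjusted p of 0.29 in edgeR's test.

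An unadjusted p under 0.05 with a lower level in A178D was thus found in 4 of the 10 members, and in 8.81% of all genes tested. No NFAT member was called with edgeR, DESeq2 or limma-voom, or in any of the 7 fits without a single heart. Their log2 fold changes were below 0 in these and in all other alternatives, and without single hearts they ranged from -0.35 to -0.14. With the offsets for length and GC content they were -0.24 for *Nfatc1*, -0.18 for *Nfatc2*, -0.15 for *Nfatc3* and -0.27 for *Nfatc4*. Without A178D replicate 4 they were -0.25, -0.23, -0.16 and -0.30. *Nfat5*, a relative that responds to osmotic stress and does not need calcineurin, had a log2 fold change of -0.25 (SE 0.12, adjusted p = 0.321 in edgeR's test). Its value was 53.8 CPM in A178D replicate 4 against 72.4 to 92.0 CPM in the other hearts, and its log2 fold change was -0.13 without that heart and -0.12 with the offsets.

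**Figure D3:**
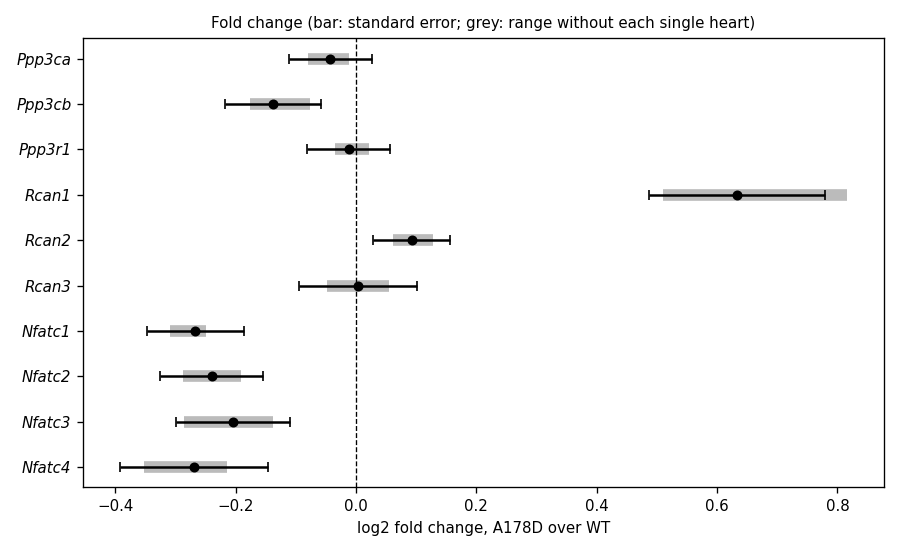
Log2 fold change of each member, A178D over WT. Points are edgeR's values from 3 WT and 4 A178D hearts, black bars are standard errors and grey bars span the values without each single heart, which for *Rcan1* run from 0.51 to 0.82 and cross 0 for *Rcan3* and *Ppp3r1*.

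Levels of the 10 members were set side by side per 1000 bases of exons. In WT hearts *Rcan2* came first with 144 ± 6.77 CPM per 1000 bases (SD, n = 3), followed by *Ppp3r1* with 29.4 ± 0.841 and *Rcan1* with 22.9 ± 4.77. *Ppp3cb* (10.9 ± 0.52) and *Ppp3ca* (5.07 ± 0.242) came next on this scale. *Nfatc1* (3.84 ± 0.0529), *Nfatc3* (3.64 ± 0.379), *Nfatc2* (3.22 ± 0.17) and *Rcan3* (3.09 ± 0.207) followed, and neighbours among these did not differ beyond their spread with this length. With the longest transcript as the length, *Nfatc1* (5.99 ± 0.0823), *Nfatc2* (4.99 ± 0.263) and *Rcan3* (3.09 ± 0.207) differed beyond their spread, and *Nfatc3* came before *Nfatc1*. *Nfatc4* was the lowest at 1.42 ± 0.151 CPM per 1000 bases.

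In A178D hearts the mean of *Rcan1* was 35.6 ± 6.8 CPM per 1000 bases (SD, n = 4) and that of *Ppp3r1* 29.1 ± 1.49, so that their order was exchanged. Per 1000 bases, *Rcan1* was below *Ppp3r1* in all 3 WT hearts and above it in 3 of the 4 A178D hearts. The exception was A178D replicate 3, with 27.8 for *Rcan1* and 30.5 for *Ppp3r1*. In WT replicate 1 the values were close, at 28.4 and 28.7, and with the longest transcript as the length *Rcan1* was above *Ppp3r1* in that heart and in all 4 A178D hearts. The share of *Rcan1* in the summed level per length of the 3 Rcan genes was 13.5 ± 2.55% in WT and 18.5 ± 2.85% in A178D hearts, and *Rcan2* made up most of the remainder. The composition of the NFAT transcripts, with *Nfat5* included, was close to equal between the genotypes. The share of *Nfatc1* was 22.8 ± 0.98% in WT and 22.5 ± 1.46% in A178D hearts, and that of *Nfatc2* 19.2 ± 1.54% and 19.2 ± 1.51%. These shares were not tested.

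Markers of other cell types are given because several NFAT genes are also expressed outside myocytes. All 8 endothelial markers were found, with *Kdr* as the most abundant, and summed to 1235, 1149 and 1070 CPM in WT replicates 1, 3 and 4 and to 1154, 1136, 1189 and 1148 CPM in A178D replicates 1 to 4. None of the 8 was called by edgeR, none had an unadjusted p under 0.05, and the groups overlapped in this sum. The 4 endocardial markers, led by *Npr3*, summed to 36.4, 37.0 and 36.1 CPM in WT and to 60.4, 50.5, 51.1 and 38.3 CPM in A178D hearts. This sum was higher in every A178D heart, though only narrowly in A178D replicate 4. Of the 4 markers 1, *Plvap*, was called (log2 fold change 0.72, SE 0.13, adjusted p = 0.0113 in edgeR's test). *Npr3*, *Cytl1* and *Nrg1* were not called and overlapped between the genotypes. In A178D replicate 4 *Npr3* was at 19.2 CPM, below the WT hearts at 19.4 to 20.7 CPM. The 8 fibroblast markers, led by *Dcn*, summed to 1178, 1205 and 1090 CPM in WT and to 1407, 1332, 1277 and 1297 CPM in A178D hearts. This sum was also higher in every A178D heart, with none of the markers at 0, and 1 of the 8, *Col3a1*, was called (log2 fold change 0.62, SE 0.14, adjusted p = 0.0317 in edgeR's test). The other collagens, *Col1a1* and *Col1a2*, had log2 fold changes of 0.45 and 0.26, while *Dcn*, *Tcf21*, *Pdgfra* and *Postn* lay between -0.07 and 0.04 and *Lum* was at 0.19. The part of either list in the values of the members was not tested.

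Vascular wall markers were summed in the same way. The 6 smooth muscle markers, led by *Smtn*, summed to 656, 658 and 614 CPM in WT and to 398, 477, 492 and 490 CPM in A178D hearts, and 5 of the 6 were called lower. The 6 pericyte markers summed to 1069, 1097 and 1052 CPM in WT and to 917, 966, 1026 and 791 CPM in A178D hearts, with none called by edgeR. The larger part of this sum was *Abcc9*, at 572, 598 and 628 CPM in WT and at 555, 571, 616 and 426 CPM in A178D hearts. The genotypes overlapped in *Abcc9*, and the cells its counts came from were not tested. Only *Rgs5* of the 6 was without overlap. No marker of either list was at 0, and in both sums every A178D heart was below every WT heart. Their part in the NFAT values was not tested, and in whole ventricles fewer cells of a type and less RNA per cell cannot be told apart. T cells, in which *Nfatc2* is also active, left little RNA in these hearts. The 6 T cell markers in the table, led by *Cd4*, summed to between 2.55 and 3.71 CPM, *Cd3d* was at 0 in WT replicates 1 and 3 and *Lck* in A178D replicate 4, and *Trac* was not analysed here.

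Further genes around calcineurin were taken in 7 lists, and 74 of their 78 genes were tested. Among these 4 were called higher and 1 lower, with a median log2 fold change of -0.01. The list of calcineurin anchors, inhibitors and sarcomeric binders had 16 tested genes of 17, with 2 called higher and 0 lower and a median of 0.11 beside 0.002 over all genes. *Lmcd1* encodes a LIM domain protein that is known to act together with calcineurin in cardiac hypertrophy. Its level was 51.7, 42.9 and 40.9 CPM in WT replicates 1, 3 and 4 and 65.3, 60.2, 59.6 and 73.6 CPM in A178D replicates 1 to 4, with no overlap. *Lmcd1* had a log2 fold change of 0.51 (SE 0.10, adjusted p = 0.0167 in edgeR's test), and its call was lost without WT replicate 3 (0.11), WT replicate 4 (0.0975) or A178D replicate 1 (0.0555). *Akap1*, an anchor that holds signalling enzymes including calcineurin at the outer mitochondrial membrane, was at 201, 169 and 173 CPM in WT and at 254, 228, 236 and 226 CPM in A178D hearts. Here too the genotypes did not overlap. *Akap1* had a log2 fold change of 0.38 (SE 0.08, adjusted p = 0.0207 in edgeR's test), and its call was lost without WT replicate 3 (0.141), WT replicate 4 (0.106), A178D replicate 1 (0.084) or A178D replicate 3 (0.0565).

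In the same list *Myoz2*, which encodes the Z-disc protein calsarcin of the heart that binds calcineurin, had a mean of 1151 ± 108 CPM (SD, n = 3) in WT and 1444 ± 149 CPM (SD, n = 4) in A178D hearts. Its log2 fold change was 0.33 (SE 0.09, adjusted p = 0.0742 in edgeR's test). *Csrp3*, which encodes muscle LIM protein, had a log2 fold change of 0.27 (SE 0.08, adjusted p = 0.123 in edgeR's test). DESeq2 called both (adjusted p = 0.0131 and 0.048), so that it called 4 genes of this list. The titin-associated *Tcap* and *Fhl2*, of which *Fhl2* is also known as a calcineurin binder, had log2 fold changes of 0.13 and 0.09 (adjusted p = 0.46 and 0.653 in edgeR's test), and that of *Fhl2* turned to -0.01 without WT replicate 1. With the offsets they were 0.0104 and 0.0045.

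A list of genes that act upstream of calcineurin through calcium had 16 tested genes of 17, with 0 called higher, 1 called lower and a median log2 fold change of -0.08. At an unadjusted p under 0.05, 1 was higher and 3 were lower, beside 1102 higher and 1224 lower among all 13894 genes tested. The higher gene of the list was *Cacna1h*, a T-type calcium channel, with a log2 fold change of 0.50 (SE 0.17, adjusted p = 0.163 in edgeR's test). *Itpr2* encodes an inositol trisphosphate receptor that releases calcium around the nucleus of cardiomyocytes. It was at 22.7, 24.4 and 25.2 CPM in WT replicates 1, 3 and 4 and at 17.0, 18.3, 19.1 and 14.3 CPM in A178D replicates 1 to 4. All A178D hearts were below all WT hearts. *Itpr2* had a log2 fold change of -0.49 (SE 0.10, adjusted p = 0.0279 in edgeR's test), and its call was lost without WT replicate 3 (0.133), WT replicate 4 (0.12) or A178D replicate 1 (0.0884). With the offsets its log2 fold change was -0.38 (0.0252). With a replicate block and the offsets it was -0.37 and the gene was not called (0.0679). *Cacna1c*, the pore of the cardiac L-type calcium channel, had a log2 fold change of -0.29 (SE 0.08, adjusted p = 0.0921 in edgeR's test), and DESeq2 called it (0.029, within a range from 0.029 to 0.216 over the alternatives). Its transcript of 13162 bases is among the long ones, and with the offsets its log2 fold change was -0.17.

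NFAT kinases phosphorylate the factors again and so oppose calcineurin. All 12 were tested and edgeR called none, with a median log2 fold change of -0.02. An unadjusted p under 0.05 was found in 2 of the 12, beside 2326 of all 13894 genes tested. The 2 kinases were *Dyrk2* and *Csnk1e*, with log2 fold changes of -0.33 and -0.20 and adjusted p-values of 0.201 and 0.213 in edgeR's test. *Gsk3b*, a kinase known to restrain NFAT in the heart, had a log2 fold change of -0.16 (adjusted p = 0.357 in edgeR's test), or -0.07 with the offsets and -0.09 without A178D replicate 4. DESeq2 and limma-voom called none of the 12 either.

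Of the 15 partner factors 14 were tested, edgeR called none, and the median log2 fold change was -0.05. At an unadjusted p under 0.05, 1 was higher and 3 were lower, beside 1102 higher and 1224 lower among all 13894 genes tested. The higher gene of the list was *Hand2*, with a log2 fold change of 0.25 (SE 0.11, adjusted p = 0.263 in edgeR's test). The smallest p was that of *Crtc3*, a coactivator that calcineurin dephosphorylates, which had a log2 fold change of -0.29 (SE 0.09, adjusted p = 0.113 in edgeR's test). *Crtc2* and *Mef2a*, a muscle transcription factor, had log2 fold changes of -0.22 and -0.29 (adjusted p = 0.227 and 0.253 in edgeR's test). *Mef2a* was at 71.1 CPM in A178D replicate 4 against 103 to 125 CPM in the other hearts, and its log2 fold change was -0.17 without that heart. The 4 genes of nuclear transport, *Kpnb1*, *Kpna2*, *Xpo1* and *Ran*, had log2 fold changes between -0.12 and 0.10 with a median of -0.01, that of *Xpo1* was -0.04 with the offsets and -0.06 without A178D replicate 4, and none was called by edgeR, DESeq2 or limma-voom or had an unadjusted p under 0.05. Of the isoforms outside the members, *Ppp3cc* and *Nfat5*, edgeR, DESeq2 and limma-voom called none, 0 had an unadjusted p under 0.05, and the median was -0.09.

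Transcripts tied to hypertrophy and the foetal programme made up a list of 10 tested genes, among them the adult genes *Myh6* and *Atp2a2*, with 2 called higher, 0 called lower and a median log2 fold change of 0.73. The called genes were *Nppa* and *Acta1*, which encode the atrial natriuretic peptide and skeletal alpha-actin. Heart by heart, *Nppa* was at 249, 188 and 109 CPM in WT replicates 1, 3 and 4 and at 529, 364, 322 and 588 CPM in A178D replicates 1 to 4. *Acta1* was at 183, 71.97 and 69.3 CPM in WT and at 811, 495, 706 and 672 CPM in A178D hearts. Neither gene overlapped between the genotypes, and WT replicate 1 was the highest WT heart in both, as it was for *Rcan1*. The call of *Acta1* (log2 fold change 2.64, adjusted p = 0.000651 in edgeR's test) held in all 7 fits without a single heart. *Nppa* had a log2 fold change of 1.31 (SE 0.24, adjusted p = 0.0146 in edgeR's test), and its call was lost without WT replicate 3 (0.086), WT replicate 4 (0.0598) or A178D replicate 1 (0.0555).

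*Ankrd1*, which encodes an ankyrin repeat protein of the sarcomere and the nucleus, was at 1414, 936 and 812 CPM in WT replicates 1, 3 and 4. In A178D replicates 1 to 4 it was at 2081, 1527, 1346 and 1740 CPM, which gives the same pair of overlapping hearts as *Rcan1*. Its log2 fold change was 0.67 (SE 0.17, adjusted p = 0.0591 in edgeR's test), and without WT replicate 1 it was 0.94 (0.00201, against up to 0.241 without other hearts). *Myh7*, the slow myosin of the foetal ventricle, was at 783 CPM in WT replicate 1, above A178D replicate 3 with 779 CPM. Its log2 fold change was 0.84 (SE 0.22, adjusted p = 0.067 in edgeR's test), and without WT replicate 1 it was 1.31 (9.31e-05, against up to 0.26 without other hearts). Limma-voom called *Ankrd1* (adjusted p = 0.0473) and *Myh7* (0.0379), and DESeq2 called neither (0.132 and 0.176). With the offsets edgeR called *Myh7* (0.0338) and not *Ankrd1* (0.0858). Without a filter edgeR called *Ankrd1* (0.0194) and *Myh7* (0.0217). It also called both with a replicate block (0.00115 and 0.0107) and with the block and the offsets (0.00604 and 0.0128). *Fhl1*, which encodes a LIM protein of the sarcomere, had a log2 fold change of 0.15 (SE 0.07, adjusted p = 0.333 in edgeR's test).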

How the data were processed

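Raw counts deposited by the authors cover 7 stranded poly(A) libraries of mouse left ventricle, read from both ends. The submitters' processing notes name GRCm38, bcl2fastq 2.18.0.12, HISAT2 2.1.0, SAMtools 1.6 and DESeq2 1.26.0. The counting program and its annotation are not given in the sources used here. Names, positions and lengths came from GENCODE M21 by Ensembl identifier, and 20989 of the 21257 entries were matched. Repeated entries were counted once. Most low counts were even numbers (17.6 to 20.3% of counts from 1 to 20 were odd), so halved counts were tried as an alternative.

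Samples were grouped by genotype. The whole table was fitted with edgeR 4.0.16 in R 4.3.3 (glmQLFit and glmQLFTest with TMM and genotype alone, for genes reaching 10 counts in 3 or more libraries), p-values were adjusted by Benjamini-Hochberg over all 13894 genes, and an adjusted p under 0.05 was called. The pipeline was tested on simulated data. Alternatives were DESeq2 1.42.0, limma-voom (limma 3.58.1), DESeq2's size factors, other count filters, a replicate block, the table as deposited, halved counts, offsets for transcript length and GC content (mgcv 1.9.3), a threshold of 0.01, another length per gene, and leaving out each heart. The members and lists were chosen with earlier results of these data known. Beside the members, the rule for named genes takes called genes of the 7 lists, the 3 smallest p-values of each, 8 genes chosen because the study's paper names them (*Fhl1*, *Ankrd1*, *Fhl2*, *Csrp3*, *Tcap*, *Nppa*, *Acta1* and *Myh7*) and the 3 genes most like *Rcan1*, not all of which are described. Single genes of the lists and markers beyond this rule were chosen after their values were seen. Promoter sequences came from RefSeq (GRCm38.p6). With 3 and 4 hearts small differences can be missed, and counts per gene say nothing about protein or about the cell a transcript came from.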

Additional observations from a re-analysis of the deposited data

Results flagged for a closer look

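Dixon's ratio, taken over the 4 A178D hearts for each of 38 genes, set a single heart apart in 3 of them, and about 1 in 20 is expected by chance. *Ppp3cb* was at 76.1 CPM in A178D replicate 4, against 90.3 to 92.5 CPM in the other A178D hearts. *Xpo1* was at 52.4 CPM in the same heart, against 62.1 to 63.3 CPM. *Nfatc1* was at 26.0 CPM in A178D replicate 2, against 22.9 to 23.4 CPM in the others, all below the lowest WT heart at 28.4 CPM. A178D replicate 4 was also the library with the lowest median for long transcripts and the fewest counts, and with offsets for length and GC content the log2 fold change of *Ppp3cb* was -0.11 instead of -0.14 and that of *Xpo1* -0.04 instead of -0.12. The groups of 3 WT hearts were not examined in this way.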

How the results depend on the processing

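Of 180 values of the 10 members under alternatives, 166 kept their direction and their side of the threshold, 7 lost the call of *Rcan1* and 7 turned the sign of *Rcan3* or *Ppp3r1*. *Rcan1* kept a log2 fold change of 0.63 with DESeq2 (adjusted p = 0.0631) and was not called at an adjusted p under 0.01. Without single hearts the values of *Rcan1* spanned 0.51 to 0.82, with an adjusted p between 0.00536 and 0.194, and over the other alternatives the adjusted p ranged from 0.00221 to 0.0631. The number of members called was 0 with DESeq2 and at 0.01, and 0 to 1 without single hearts. *Rcan3* ranged from -0.0473 to 0.0556 and *Ppp3r1* from -0.0355 to 0.0210 without single hearts. The other named genes gave 504 values, of which 443 kept direction and side, 29 lost a call in 6 genes, 27 gained a call in 8 genes and 5 turned the sign in 3 genes. Of these 3, *Ppp3cc* ranged from -0.0181 to 0.127, *Kpna2* from -0.0485 to 0.0190 and *Fhl2* from -0.0095 to 0.158 without single hearts. Over all genes, edgeR called 145 higher and 182 lower. DESeq2 called 290 and 375, the threshold of 0.01 left 24 and 40, and the length and GC content offsets gave 284 lower. Without single hearts 22 to 215 genes were higher and 31 to 238 lower. In the list of anchors, inhibitors and binders 4 genes were called with DESeq2, 0 at 0.01 and 0 to 2 without single hearts. In the list upstream of calcineurin 3 were called with DESeq2, 2 with the offsets, 0 at 0.01 and 0 to 2 without single hearts. In the hypertrophy and foetal programme list 4 were called with limma-voom, 4 without a filter, 1 at 0.01 and 1 to 5 without single hearts. The causes of these changes were not tested. The order of levels per length with the longest transcript put *Nfatc3* before *Nfatc1*, and the order of the other members was that with merged exons. The labels share replicate numbers 1, 3 and 4 between the genotypes, and deviations of same-numbered hearts correlated with r of 0.003, -0.04 and -0.042, so the numbers were not taken as pairs. With the replicate block, 124 genes were higher and 147 lower, *Rcan1* had a log2 fold change of 0.64 (adjusted p = 0.00303 in edgeR's test), *Rcan3* -0.007 and *Kpna2* 0.0093, and 5 genes of the hypertrophy and foetal programme list were called. With the replicate block and the offsets, 5 genes of that list and 1 partner factor, *Mef2a* (adjusted p = 0.0419), were called, and *Itpr2* was not (0.0679). Depth limits *Nfatc4* most among the members, with 236 to 483 counts per library.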
